A study of Mus musculus with 6 samples.

Results

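The 9 genes described here encode secreted growth factors and were taken by gene symbol from the count table: Igf1, Vegfa, Vegfb, Pdgfa, Pdgfb, Pdgfc, Hgf, Hbegf and Bdnf. They are 9 of the 17469 genes in that table, and all 9 were among the 12701 genes with enough counts to be tested. Total RNA was sequenced from tdTomato+ cells sorted out of bone marrow stromal cell (BMSC) cultures of 6-month-old mice, with 3 libraries from OCN-Cre; Ai9 (control) mice and 3 from TgAPPswe; OCN-Cre; Ai9 mice (TgAPPsweOCN). All 6 libraries carry the OCN-Cre driver, which puts Cre recombinase under the osteocalcin promoter, and the Ai9 allele, a reporter that turns on tdTomato where Cre has acted. TgAPPswe, a human amyloid precursor protein gene with the Swedish mutation that is expressed after Cre has acted, is carried by the TgAPPsweOCN mice alone. No library was treated, and the number of mice behind a library is not given in the sources used here. P-values therefore measure the spread between these libraries, which may be technical.

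Growth factors of this kind are released by a cell and act on receptor tyrosine kinases of the same or neighboring cells. IGF1 promotes growth and survival in bone, muscle and brain, and most of it is carried by binding proteins. VEGFA and VEGFB act on blood vessels, platelet-derived growth factors (PDGFs) on stromal cells, HGF and HB-EGF on epithelial and many other cells, and BDNF on neurons. The study displayed, among other groups of genes, growth factors that it calls critical for neurogenesis in a heat map of these cells. It showed Igf1, Bdnf and Vegfb from these same libraries, so their direction here is not independent evidence.

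Estimated counts summed to 19340810 to 19801060 in control and 21677461 to 22037840 in TgAPPsweOCN libraries, and the fewest counts of any of the 9 genes in a library were 17, for Bdnf. The level of 3 counts taken as the lower limit of detection, 0.136 to 0.155 CPM (counts scaled to a common library total), was exceeded everywhere and covers counting error only. App, the mouse counterpart of the transgene, had 279 ± 3.5 FPKM (mean ± SD, n = 3) in control and 330 ± 4.18 FPKM in TgAPPsweOCN libraries, in a table entry that does not separate human from mouse transcripts. FPKM divides the fragments of a gene by the length of its transcript and by the library's mapped total. The log2 fold change of App was 0.45 (adjusted p = 7.87e-05). Myeloid marker genes were far more abundant than stromal and osteoblast markers in these sorted cells. The summed FPKM of 15 myeloid markers was 19855 to 20626 in control and 16465 to 20202 in TgAPPsweOCN libraries, against 145 to 172 and 114 to 199.9 for 15 stromal and osteoblast markers. Bglap, the mouse osteocalcin gene, had 0.857 ± 0.461 FPKM in control and 0.273 ± 0.25 in TgAPPsweOCN libraries. In bulk RNA, fewer cells that make a transcript and less of it per cell cannot be told apart.

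All 9 growth factor genes were lower in TgAPPsweOCN than in control cells. Igf1 fell most, 5.69-fold, followed by Pdgfa (3.52-fold), Pdgfb (2.87-fold), Vegfa (2.70-fold) and Vegfb (2.34-fold), while Hgf and Pdgfc fell 2.03-fold each. Bdnf and Hbegf fell by less than the 2-fold limit for a call, 1.82-fold and 1.38-fold. For each gene, every TgAPPsweOCN library lay below every control library. The exact permutation test gave p = 0.1 (two-sided) for each, which is as low as 3 libraries against 3 can go. Across all tested genes 34.9% were lower and 34.8% higher without overlap between the genotypes. With edgeR, all 9 had an adjusted p at or below 0.05, against 31.5% of all tested genes that passed in this direction. Of the 9, 7 were down-regulated, meaning that the log2 fold change was also -1 or less, against 9.2% of all tested genes, and 0 were up-regulated. The 9 genes were chosen with earlier results of these data known, so these counts describe them and no more. The median log2 fold change was -1.23 over the 9 genes and -0.02 over all tested genes. Scaling by library size only moved the latter to -0.23 and turned the split of 1130 up- and 1169 down-regulated genes into 846 and 1732, while all 9 growth factors remained lower.

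**Figure D1:**
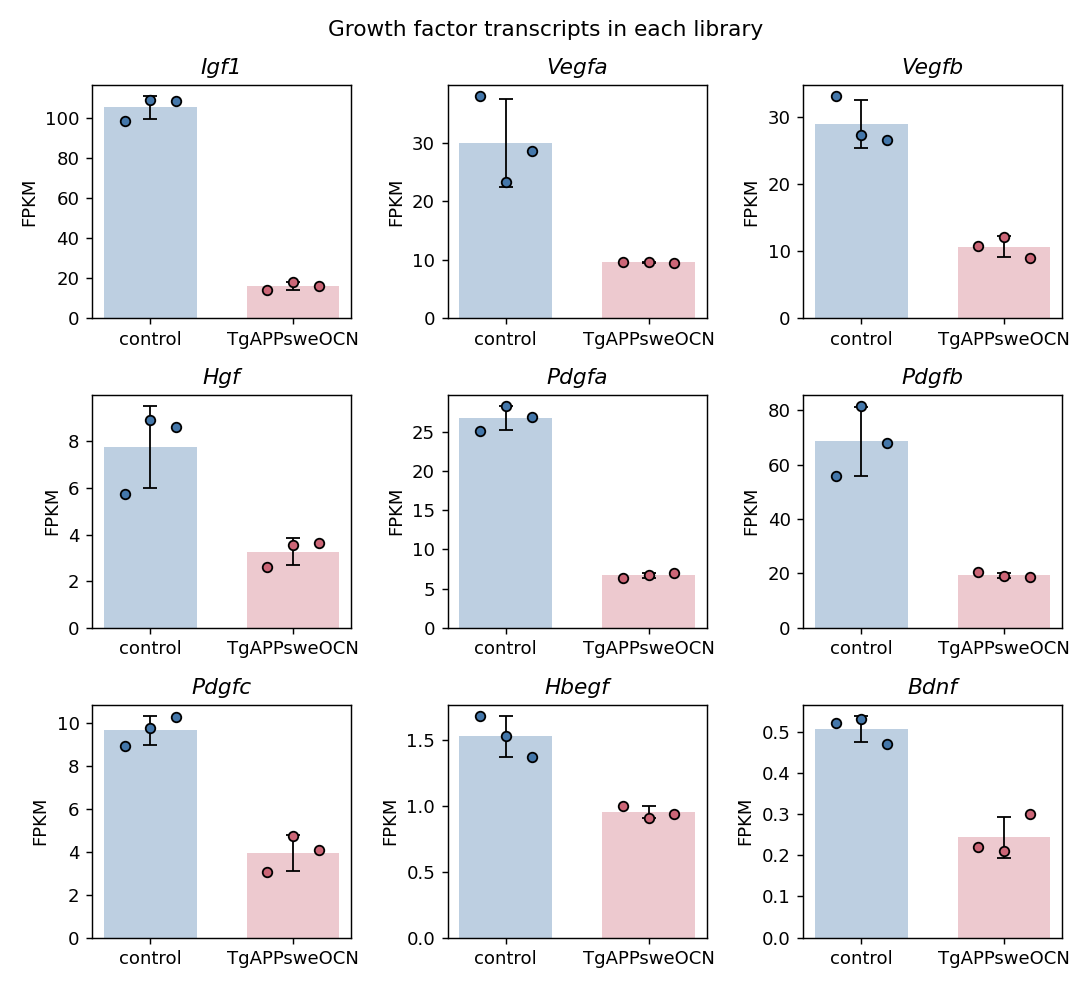
FPKM of each growth factor gene (vertical axis from 0, scaled for each gene) in the 3 control and 3 TgAPPsweOCN libraries, shown as points, with the mean as a bar and the SD as an error bar. In all 9 panels the TgAPPsweOCN points lie below the lowest control point, with the widest gap in Igf1 and the narrowest in Hbegf.

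**Figure D2:**
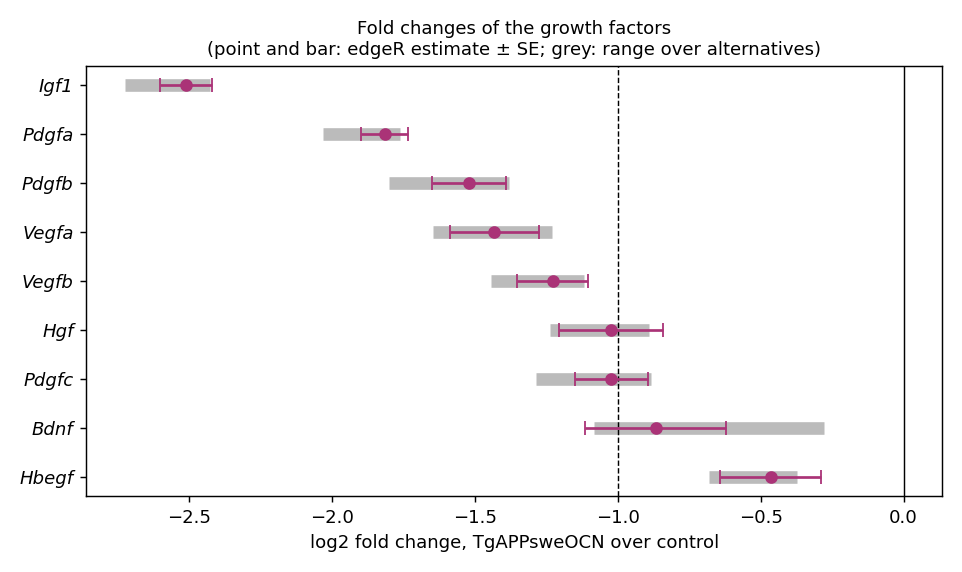
The log2 fold change of each growth factor gene, TgAPPsweOCN over control (horizontal axis), as the edgeR estimate with its standard error, over a grey band that spans the 15 alternative analyses. The dashed line marks -1, which the bands of Hgf, Pdgfc and Bdnf cross, and no band reaches 0.

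Igf1 (Entrez identifier 16000; mm10 chromosome 10, 87858265 to 87937047, plus strand) encodes insulin-like growth factor 1. Its levels were 98.95, 109.12 and 108.55 FPKM in control and 13.85, 18.07 and 16.02 FPKM in TgAPPsweOCN cells. The controls thus lay close together, and the lowest of them was 4.81 times the highest TgAPPsweOCN library in normalized CPM. Igf1 changed by -2.51 in log2 units (standard error 0.0915, adjusted p = 1.82e-07), rank 74 among the 12701 tested genes from the most lowered. The estimate ran from -2.72 to -2.43 over the alternatives. Igf1 was among the most abundant transcripts in control cells, at ranks 694 to 802 of 17469 by FPKM, and stood at ranks 4119 to 4860 in TgAPPsweOCN cells. The receptor gene Igf1r fell with its ligand, from 3.05 ± 0.142 to 1.2 ± 0.112 FPKM (-1.16 on the log2 scale, with a standard error of 0.0834 and an adjusted p of 5.88e-06).

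Of a list of IGF-binding proteins, their acid-labile partner, the proteases that release IGF1 from them and inhibitors of these, 8 of 12 measured genes were tested, of which 2 rose, 2 fell and 4 did not pass the adjusted p. Over all tested genes 32.5% rose and 31.5% fell by the adjusted p. With scaling by library size only 2 of the list rose and 3 fell. Igfbp4, by far the most abundant binding protein in these cells, fell from 387 ± 38.8 to 131 ± 19.5 FPKM (log2 fold change -1.35, adjusted p = 2.63e-05). Its libraries ranged from 353.61 to 429.29 FPKM in control and from 111.18 to 150.22 FPKM in TgAPPsweOCN cells. Igfbp3, the main carrier of IGF1 in blood, rose from a low 0.687 ± 0.0902 to 1.49 ± 0.376 FPKM (log2 fold change 1.33, adjusted p = 0.00162). The other 2 that passed, named after their values were seen, were Igfbp5 (0.88) and the protease gene Pappa (-0.40). On the log2(FPKM + 1) scale the changes of Igf1r (-0.88) and Igfbp3 (0.55) were short of the 2-fold limit.

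Vegfa (Entrez identifier 22339; chromosome 17, 46016993 to 46032377, minus strand) encodes the main growth factor of blood vessels, and Vegfb (Entrez identifier 22340; chromosome 19, 6982472 to 6987651, minus strand) a relative that binds a narrower set of receptors. The 250 bases before their start sites are shown because both genes fell while their upstream sequences differ in composition. Capitals mark the GC box GGGCGG and the CAAT box CCAAT on either strand.
Vegfa, chr17:46032378-46032627, minus strand: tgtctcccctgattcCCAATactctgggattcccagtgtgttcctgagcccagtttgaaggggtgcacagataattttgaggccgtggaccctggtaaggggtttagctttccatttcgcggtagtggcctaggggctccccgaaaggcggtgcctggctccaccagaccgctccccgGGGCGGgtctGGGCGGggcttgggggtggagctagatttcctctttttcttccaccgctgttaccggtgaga
Vegfb, chr19:6987652-6987901, minus strand: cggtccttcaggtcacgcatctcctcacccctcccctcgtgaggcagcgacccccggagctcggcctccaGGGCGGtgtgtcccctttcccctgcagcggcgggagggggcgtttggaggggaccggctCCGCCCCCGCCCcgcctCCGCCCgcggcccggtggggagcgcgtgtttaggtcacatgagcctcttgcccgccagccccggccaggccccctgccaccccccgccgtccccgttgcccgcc
The sequences are RefSeq windows of the build GRCm38.p6, which corresponds to mm10. The Vegfa window had 2 GC boxes, 1 CAAT box and a GC content of 59.2%, and the Vegfb window 4 GC boxes, 0 CAAT boxes and a GC content of 76.4%. Among 32841 such windows the median GC content was 52.4%, and 32.7% held a GC box and 33.9% a CAAT box. Neither window held the TATA box TATAAA (12.4% of all windows), the AP-1 site TGANTCA (6.75%) or the core ACGTG of the hypoxia response element (16.6%). A match is a run of letters and not a measured binding site, and these libraries do not show which start site was used. A further Vegfa window, which lies mostly on annotated exons and is not shown, held 1 ACGTG.

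Vegfa stood at 38.02, 23.25 and 28.65 FPKM in control cells, a 1.64-fold range, and at 9.54, 9.57 and 9.42 FPKM in TgAPPsweOCN cells, a range of 1.02-fold. The spread was thus almost wholly in the controls, with control replicate 1 the highest. Vegfa changed by -1.43 in log2 units (standard error 0.156, adjusted p = 6.67e-05), or by -1.23 when control replicate 1 was left out. Vegfb had 33.1, 27.22 and 26.5 FPKM in control and 10.69, 12.13 and 9.01 in TgAPPsweOCN libraries, again with control replicate 1 the highest. For Vegfb the change was -1.23 (standard error 0.125, adjusted p = 4.36e-05). Per length, both transcripts were at nearly the same level. The ratio of Vegfa to Vegfb FPKM was 1.03 ± 0.154 in control and 0.909 ± 0.129 in TgAPPsweOCN libraries. On the log2 scale it differed by -0.18, with overlap between the genotypes (exact permutation test, two-sided p = 0.4). This difference ran from -0.30 without control replicate 2 to -0.078 without TgAPPsweOCN replicate 2, and was -0.28 without TgAPPsweOCN replicate 3 and -0.09 without control replicate 1.

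The VEGF receptors and co-receptors were at unequal levels. Nrp1, a co-receptor of VEGFA, fell from 71.7 ± 1.94 to 19.3 ± 3.64 FPKM (log2 fold change -1.71, adjusted p = 4.63e-06). Its relative Nrp2 rose from 63.1 ± 4.56 to 74.7 ± 2.78 FPKM (0.46 on the log2 scale, adjusted p = 0.000557). The rise of Nrp2 was smaller with scaling by library size only (0.247) and on the log2(FPKM + 1) scale (0.243). Kdr, the main signaling receptor of VEGFA, was low and fell from 1.26 ± 0.145 to 0.557 ± 0.11 FPKM (log2 fold change -0.97, adjusted p = 0.00113). It passed -1 in the fits without control replicate 1 (-1.01), control replicate 2 (-1.05) or TgAPPsweOCN replicate 2 (-1.09), with scaling by library size only (-1.19) and on the log2(FPKM + 0.1) scale (-1.06). On the log2(FPKM + 1) scale it was -0.54. Flt1, a receptor of both ligands, had too few counts to be tested (0.11 ± 0.04 and 0.0567 ± 0.0252 FPKM).

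Vegfa belongs to the genes that low oxygen induces through HIF factors, of which 13 other factors and targets were measured. Of these, 9 rose, 2 (Epas1 and Egln1, named after their values were seen) fell and 2 did not pass the adjusted p, against 32.5% and 31.5% of all tested genes that rose and fell. Among the 9, 5 were up-regulated, against 8.9% of all tested genes. The median log2 fold change of the list was 0.56, and 0.34 with scaling by library size only. Ndrg1, a stress-responsive gene, rose from 17.1 ± 1.3 to 462 ± 148 FPKM (log2 fold change 4.96). The glucose transporter Slc2a1 (1.23), the glycolytic enzyme Pgk1 (1.18) and the vascular peptide Adm (1.30) rose as well, with adjusted p from 5.02e-06 to 0.000737. Hif1a, named after its values were seen, rose by 1.16 (adjusted p = 7.92e-06). Of these 5 genes, Pgk1 and Hif1a were short of the 2-fold limit with library size only (0.97 and 0.94), and only Ndrg1 reached it on the log2(FPKM + 1) scale. Whether these changes bear on that of Vegfa was not tested.

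**Figure D3:**
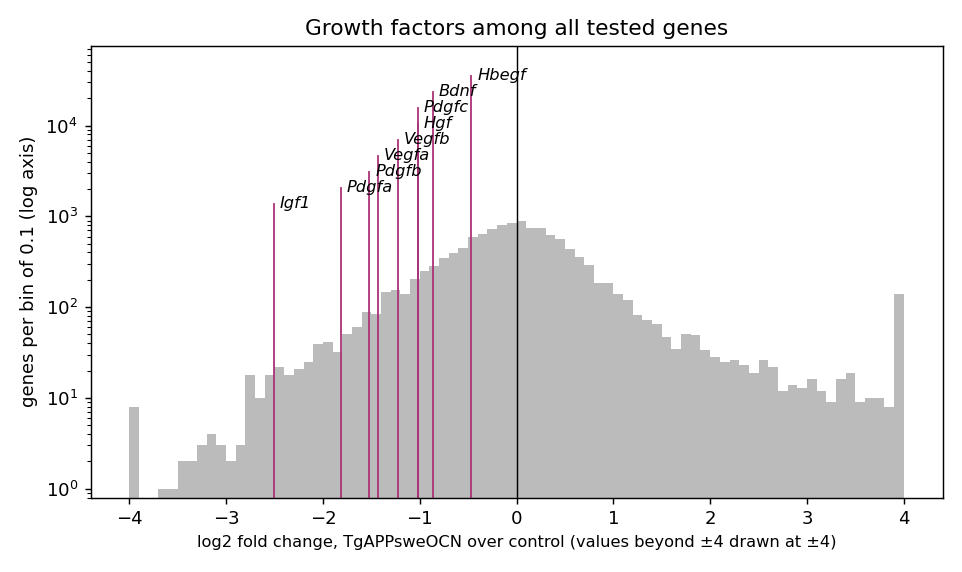
Number of tested genes (vertical, log axis) by log2 fold change, TgAPPsweOCN over control, in bins of 0.1, with a line at each growth factor gene and values beyond 4 in either direction drawn at 4. The lines of the 9 growth factors run from Igf1 at -2.51 to Hbegf at -0.47, all left of the peak of the distribution near 0.

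The PDGF genes encode chains that pair into dimers, PDGFA and PDGFB being cut inside the cell and PDGFC after its release. Pdgfa (Entrez identifier 18590; chromosome 5, 138976014 to 139000792, minus strand) had 25.14, 28.24 and 26.9 FPKM in control and 6.34, 6.73 and 6.97 in TgAPPsweOCN libraries. Both sets were tight, the controls lying within 1.12-fold of each other, and Pdgfa changed by -1.81 in log2 units (standard error 0.0817, adjusted p = 4.64e-07). Pdgfb (Entrez identifier 18591; chromosome 15, 79995865 to 80024614, minus strand) had 56.01, 81.65 and 68.04 FPKM in control and 20.45, 19.05 and 18.68 in TgAPPsweOCN libraries. As for Vegfa, the controls were more spread than the TgAPPsweOCN libraries, but here control replicate 1 was the lowest. Pdgfb changed by -1.52 (standard error 0.13, adjusted p = 1.63e-05), or by -1.66 when that library was left out. Pdgfb was the only member of the 9 with fractional estimated counts, and it had them in every library, so its value depends on how the authors' counting divided reads between genes.

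Pdgfc (Entrez identifier 54635; chromosome 3, 81036416 to 81214040, plus strand) had 8.96, 9.77 and 10.31 FPKM in control and 3.08, 4.73 and 4.08 in TgAPPsweOCN libraries. Here the TgAPPsweOCN libraries were the more spread, with replicate 1 the lowest. Its estimate of -1.02 (standard error 0.128, adjusted p = 0.000149) was just past the 2-fold limit. It fell short of that limit without control replicate 2 (-0.998), control replicate 3 (-0.997) or TgAPPsweOCN replicate 1 (-0.88), with an adjusted p of at most 0.00141 in each.

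Added up, the 3 PDGF transcripts fell from 105 ± 14.8 to 30.04 ± 0.416 FPKM, with no overlap. Pdgfb held 65.01 ± 3.06% of this sum in control and 64.6 ± 3.37% in TgAPPsweOCN libraries, with overlap (exact permutation test, p = 1). The difference of -0.43 percentage points ran from -2.38 to 1.18 when single libraries were left out. The share of Pdgfa was 25.7 ± 2.15% in control and 22.2 ± 1.12% in TgAPPsweOCN libraries, and that of Pdgfc 9.3 ± 0.987% and 13.2 ± 2.64%. Neither of these overlapped between the genotypes (p = 0.1 in the exact permutation test, the smallest possible). Of the PDGF receptor genes, which mark stromal cells, Pdgfrb fell from 6.94 ± 0.593 to 4.12 ± 0.729 FPKM (log2 fold change -0.55, adjusted p = 0.00282). Pdgfra had 1.44 ± 0.389 and 1.38 ± 0.515 FPKM, with a log2 fold change of 0.15 and an adjusted p of 0.658, and its estimate ran from -0.12 to 0.39 when single libraries were left out.

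Hgf (Entrez identifier 15234; chromosome 5, 16553495 to 16619439, plus strand) encodes hepatocyte growth factor, which is made by stromal and myeloid cells as an inactive chain. It fell by the same fold as Pdgfc. The upstream windows of both are shown for comparison with those of Vegfa and Vegfb above, and hold none of the motifs searched.
Hgf, chr5:16553245-16553494, plus strand: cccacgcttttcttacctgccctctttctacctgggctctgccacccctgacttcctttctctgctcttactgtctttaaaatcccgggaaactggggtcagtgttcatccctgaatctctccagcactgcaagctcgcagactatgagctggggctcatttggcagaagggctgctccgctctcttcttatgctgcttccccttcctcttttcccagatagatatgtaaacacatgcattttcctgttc
Pdgfc, chr3:81036166-81036415, plus strand: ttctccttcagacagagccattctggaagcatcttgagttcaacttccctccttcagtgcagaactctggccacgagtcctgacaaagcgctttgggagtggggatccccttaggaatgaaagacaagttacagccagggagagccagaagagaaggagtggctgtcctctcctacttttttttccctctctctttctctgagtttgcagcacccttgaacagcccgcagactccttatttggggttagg
Each had a GC content of 50.8%, below that of both Vegf windows. A further Hgf window lies mostly on annotated exons, held none of the motifs either and is not shown. Windows are given for 7 of the 9 genes. None was found for Pdgfb, and Hbegf was left out of this search. For Igf1 and Pdgfa the windows lie in part or whole on annotated exons and are not shown. Bdnf had 7 windows, of which 2 held a GC box and 2 the core ACGTG.

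Hgf had 5.75, 8.92 and 8.62 FPKM in control and 2.62, 3.56 and 3.63 in TgAPPsweOCN libraries. Replicate 1 was the lowest in each genotype. Hgf changed by -1.02 in log2 units (standard error 0.181, adjusted p = 0.00115), which ran from -1.20 without control replicate 1 to -0.89 without TgAPPsweOCN replicate 1. It was also short of the 2-fold limit without control replicate 2 (-0.92) or control replicate 3 (-0.96). While the ligand fell, Met, the receptor of HGF, rose from 0.34, 0.38 and 0.29 FPKM to 5.59, 4.39 and 5.48 FPKM. This change of 4.14 in log2 units (standard error 0.15, adjusted p = 1.79e-07) was the largest of any receptor gene tested here. Among the genes that activate HGF, Hpn rose from 3.52 ± 1.15 to 14 ± 1.17 FPKM (log2 fold change 2.195) and Plau, the urokinase gene, fell from 25 ± 2.55 to 6.27 ± 0.842 FPKM (-1.78). St14, a further activator gene named after its values were seen, fell as well (-0.78, adjusted p = 0.00536), and Hgfac was not tested. The inhibitor gene Spint1 fell from 1.41 ± 0.585 to 0.327 ± 0.0473 FPKM (-1.90, and -0.83 on the log2(FPKM + 1) scale).

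Hbegf (Entrez identifier 15200) encodes a ligand of the EGF receptor that is made as a membrane protein and shed by proteases. It had 1.68, 1.53 and 1.37 FPKM in control and 1, 0.91 and 0.94 in TgAPPsweOCN libraries, from 46 to 76 counts. The groups did not overlap, but the lowest control was just 1.15 times the highest TgAPPsweOCN library in normalized CPM. Hbegf changed by -0.47 (standard error 0.175, adjusted p = 0.0441), and its adjusted p was no longer at or below 0.05 in DESeq2 (0.138) or without a filter on low counts (0.0608). The same held for fits without control replicate 1 (0.108), control replicate 2 (0.0868), or TgAPPsweOCN replicate 1 (0.0575), 2 (0.115) or 3 (0.114). Egfr, the receptor gene, rose from 1.1 ± 0.112 to 6.11 ± 1.7 FPKM (2.81 on the log2 scale, with a standard error of 0.227 and an adjusted p of 1.15e-05). Erbb4, which encodes a further receptor of HB-EGF, had too few counts to be tested, at no more than 0.01 FPKM in any library. Cd9, whose protein binds the HB-EGF precursor, fell from 235 ± 44.7 to 41.6 ± 4.32 FPKM (-2.28). Adam17, which sheds HB-EGF and was named after its values were seen, rose from 52.2 ± 1.76 to 64.3 ± 5.25 FPKM (0.52, adjusted p = 0.000423).

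Bdnf (Entrez identifier 12064; chromosome 2, 109674700 to 109727043, plus strand) encodes brain-derived neurotrophic factor and was the least abundant of the 9. It had 0.52, 0.53 and 0.47 FPKM in control and 0.22, 0.21 and 0.3 in TgAPPsweOCN libraries, from 40, 42 and 36 and from 19, 17 and 26 counts. TgAPPsweOCN replicate 3 was the closest to the controls. Bdnf changed by -0.87 (standard error 0.246, adjusted p = 0.0133), or by -1.06, past the 2-fold limit, when that library was left out. Scaling by library size only gave -1.08. The log2(FPKM + 1) scale, which compresses low values, gave -0.28. Ntrk2, the main receptor of BDNF, had too few counts to be tested, at 0.01 to 0.05 FPKM. Sort1, the sorting receptor that binds the BDNF precursor, fell from 14.5 ± 1.69 to 3.44 ± 0.188 FPKM (log2 fold change -1.86, adjusted p = 7.3e-07).

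By FPKM, the order of the 9 transcripts in control cells was Igf1, Pdgfb, Vegfa, Vegfb, Pdgfa, Pdgfc, Hgf, Hbegf and Bdnf. The ranges of Vegfa, Vegfb and Pdgfa overlapped from each to the next, and no other neighbors did. In TgAPPsweOCN cells Pdgfb, at 19.4 ± 0.934 FPKM, stood above Igf1, at 16 ± 2.11 FPKM, with no overlap. Vegfb and Vegfa followed with overlapping ranges, then Pdgfa, Pdgfc, Hgf, Hbegf and Bdnf, of which Pdgfc and Hgf overlapped. The sum over the 9 genes fell from between 268 and 290.2 FPKM in control to between 67.8 and 74.96 FPKM in TgAPPsweOCN libraries. Igf1 held 37.8 ± 0.986% of that sum in control and 22.6 ± 1.91% in TgAPPsweOCN libraries, with no overlap (p = 0.1 in the exact permutation test, the smallest possible).

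**Figure D4:**
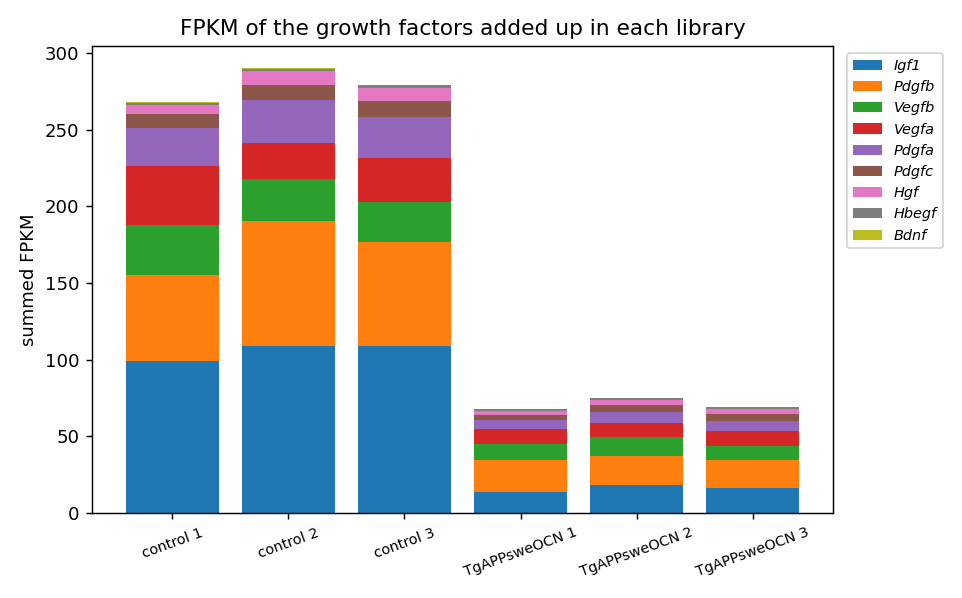
FPKM of the 9 growth factor genes stacked in each library (vertical axis from 0). The control stacks reach 268 to 290.2 FPKM and the TgAPPsweOCN stacks 67.8 to 74.96 FPKM, and the Igf1 block shrinks from the largest to the second largest.

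Not every growth factor of these families was lower. Of 17 other measured ligands of the same families, 7 had too few counts to be tested, 1 rose, 2 fell and 7 did not pass the adjusted p. Over all tested genes 32.5% rose and 31.5% fell, and the same shares apply to the receptors and proteases described next. The median log2 fold change of these ligands was -0.07, against -1.23 for the 9 genes. Vegfc, a lymphatic relative of Vegfa and Vegfb, rose from 0.98, 1.16 and 1.14 FPKM to 11.24, 7.64 and 9.64 FPKM. At 3.33 in log2 units (standard error 0.186, adjusted p = 1.52e-06), Vegfc reached the level of Vegfa (9.51 ± 0.0794 FPKM) in TgAPPsweOCN cells. The estimated counts of Vegfc were fractional in every library, so its value also depends on how reads were divided between genes. Nrg2, an EGF-family ligand, fell from 0.907 ± 0.0777 to 0.16 ± 0.0436 FPKM (-2.44, and -0.72 on the log2(FPKM + 1) scale). Of the 18 receptor genes, 15 were tested, of which 3 rose, 6 fell and 6 did not pass, with a median of -0.38. Of the processing proteases and their inhibitors, 15 of 18 genes were tested, of which 3 (Hpn, Adam17 and, named after its values were seen, Adam9) rose and 8 fell, with a median of -0.64. Among those that fell, Furin, which cuts the precursors of several growth factors and was named after its values were seen, fell from 42.7 ± 0.814 to 23.5 ± 2 FPKM (-0.64, adjusted p = 0.000101). Adam12, a sheddase of EGF-family ligands, fell from 0.577 ± 0.0666 to 0.173 ± 0.0208 FPKM (-1.51, and -0.43 on the log2(FPKM + 1) scale).

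**Figure D5:**
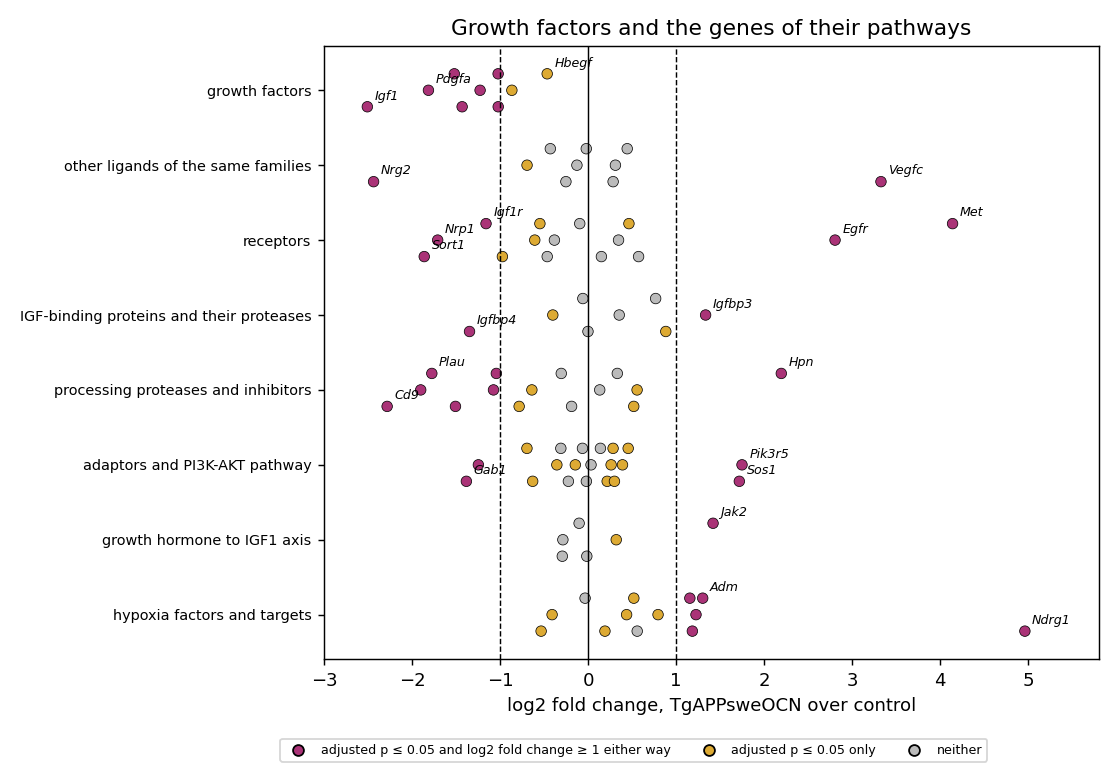
The log2 fold change, TgAPPsweOCN over control (horizontal axis), of each tested gene of 8 lists (rows), with dashed lines at the 2-fold limit and color for the calls. The 9 growth factors lie left of 0, while Vegfc, Met, Egfr, Hpn and Ndrg1 lie beyond 2 on the right.

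Markers of other cells that make these factors were compared with them, by lists whose counts stand against 32.5% of all tested genes that rose and 31.5% that fell, with 8.9% up- and 9.2% down-regulated. Of the 15 myeloid markers, 6 rose and 6 fell by the adjusted p, with a median log2 fold change of -0.13. These markers moved far apart, and 4 of them fell more than 2-fold, namely Mrc1 (-2.38), Csf1r (-1.49), Fcgr3 (-1.42) and Cd68 (-1.26). Another 4 rose more than 2-fold, namely Aif1 (2.04), Adgre1 (1.89), Itgam (1.26) and Fcer1g (1.11). They were named after their values were seen. With scaling by library size only, 3 of the myeloid markers were up- and 4 down-regulated. Of 13 tested stromal and osteoblast markers, 4 rose and 2 fell, with a median of 0.31, and with scaling by library size only 4 rose and 4 fell. The 2 up-regulated ones, named after their values were seen, were Dcn, with 0.447 ± 0.142 FPKM in control and 5.97 ± 4.51 in TgAPPsweOCN libraries, and Lum, with 0 to 0.03 and 0.63 to 0.87 FPKM. The summed FPKM of 6 megakaryocyte and platelet markers, cells rich in PDGF and VEGF, fell from between 527 and 637 in control to between 117 and 266 in TgAPPsweOCN libraries. Almost all of it was Pf4 (565 ± 60.5 and 184 ± 75.6 FPKM), while Itga2b, Gp9 and Gp1bb stayed at or below a mean of 0.56 FPKM in either genotype. Pf4 alone of its 3 tested genes passed the adjusted p. The summed FPKM of 6 endothelial markers was 5.73 to 6.88 in control and 5.57 to 6.29 in TgAPPsweOCN libraries, and 1 of 5 tested genes rose and 2 fell. That of 7 neutrophil markers was 12.3 to 51.5 and 18.1 to 49.4, and that of 5 lymphoid markers 0 to 0.21 and 0.06 to 0.22. Of the neutrophil markers 1 of 6 tested genes (Camp, named after its values were seen) rose, and of the lymphoid markers 0 could be tested. No marker was at 0 in all libraries. The part of these cells in the fall of the 9 genes was not tested.

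The transcripts most like each growth factor over the 6 libraries were sought among 11868 other genes by the root mean square difference in log2 CPM after centering. Close to Igf1 were Cd28 (0.06) and Rnf144b (0.0838). Vegfa was nearest to Tagln (0.0492), Npnt (0.0996) and Col10a1 (0.103), and Vegfb to Igflr1 (0.0721), Oxld1 (0.0732) and Kyat1 (0.0823). Pdgfb lay nearest to Gadd45g (0.021), whose FPKM went from 49.1 ± 10.4 to 14.9 ± 0.64, then to Col15a1 (0.0612) and Fam20c (0.0742). Pdgfa was nearest to the cyclin gene Ccnb2 (0.0375), then Zbtb8a (0.0568) and Zfp36l2 (0.0683). Pdgfc was nearest to the DNA ligase gene Lig1 (0.0444), then Nek2 (0.0585) and Pclaf (0.0612), and Hgf to Hipk2 (0.0753), with Fam198b (0.09) also close. Hbegf was nearest to B4galt3 (0.0369), Tyrobp (0.0382) and Zmat5 (0.0427), and Bdnf to Pitx1 (0.0929), Chrnb2 (0.0976) and Hdhd5 (0.103). Since all 6 libraries enter the measure, it includes the difference between the genotypes.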

How the data were processed

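Total RNA of sorted tdTomato+ BMSC cells was sequenced on a DNBSEQ platform. Per the paper's methods, the authors mapped reads with HISAT2 after filtering out ribosomal, adaptor-bearing and low-quality ones. They accepted RNA with an integrity number, a score of how intact it is, above 2. The submitters' processing notes name HISAT2 2.0.4, Bowtie2 2.2.5, RSEM 1.2.12, DESeq2 1.4.5 and the build mm10. The authors deposited estimated counts, fractional for 13.3% to 14.4% of genes per library, and FPKM rounded to 2 decimals. A second table, with the same FPKM in 6 columns, a log2 ratio and a p-value for 15656 genes, was not used.

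Estimated counts were rounded and compared with edgeR 4.0.16 in R 4.3.3 (filterByExpr, TMM, quasi-likelihood test, Benjamini-Hochberg adjustment over 12701 genes, genotype as the only term). A gene was called up- or down-regulated where its adjusted p was 0.05 or lower and its change 2-fold or more. Fold changes are from counts with TMM factors, so they differ somewhat from ratios of FPKM. The procedure was also run on simulated counts in which far fewer genes changed than here, evenly up and down. That run therefore does not test the scaling of these data.

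The 9 genes, the pathway and marker lists and the tests were chosen with earlier results of these data known. Named genes are the 9, their receptors, up to 4 called genes per list and direction, and the 3 nearest transcripts of each. Some genes that this rule names are not reported here. Exceptions are stated where they occur. The sum over the 9 genes and the share of Igf1 in it were added after the values were seen. Single values were compared with exact permutation tests in Python 3.11.15. Gene positions and upstream sequences come from RefSeq tables for GRCm38.p6. Genes were matched to them by symbol and, for positions, Entrez identifier. Alternatives were DESeq2 1.42.0, RLE factors, library size only, other count filters, a replicate block, limma 3.58.1 on log2(FPKM + 1) or log2(FPKM + 0.1), and leaving out each library.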

Additional observations from a re-analysis of the deposited data

How the results depend on the processing

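The log2 fold change of every one of the 9 growth factors was below 0 in all 15 alternative fits, or 135 estimates. The number past the adjusted p was 8 or 9 in each fit. Leaving out 1 library at a time gave 5 to 8 down-regulated growth factors, and log2 fold changes from -1.20 to -0.89 for Hgf, -1.13 to -0.88 for Pdgfc, -0.55 to -0.40 for Hbegf and -1.06 to -0.73 for Bdnf. Hbegf was at -0.46 in DESeq2 (adjusted p = 0.138) and -0.47 without a count filter (adjusted p = 0.0608). Bdnf reached -1.08 with library size only. Limma on log2(FPKM + 1) found 593 genes up- and 845 down-regulated, and 589 and 844 without a filter, while log2(FPKM + 0.1) gave 811 and 1510. The cause of these changes was not tested.

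A replicate block gave 7 down-regulated growth factors and an adjusted p of 0.071 for Hbegf (-0.46), with 1115 genes up- and 1147 down-regulated. It changed no other call among the 9. Deviations of same-numbered libraries correlated at 0.0127, 0.00664 and 0.141. With 3 libraries per genotype, these values cannot settle whether the numbers pair the libraries. The alternatives for 32 further genes, added after seeing the data, gave 479 estimates. None that was called changed sign, while Pdgfra, which was not called, changed sign in 6 of its 15 fits. Within a genotype, the variance between libraries of the median gene was 2.46 to 5.87 times that of counting alone. Bdnf had the fewest counts and the largest standard error of the 9.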

Other observations

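Among genes that carry the signal of these growth factors inside the cell, the shares that changed were near those over all tested genes, of which 32.5% rose and 31.5% fell. Of 20 adaptor and PI3K-AKT pathway genes, all tested, 8 rose, 6 fell and 6 did not pass the adjusted p, with a median log2 fold change of 0.01. With scaling by library size only the split was 3 higher and 10 lower, and over all tested genes it was 2806 and 5826, as that scaling shifts every gene alike. Pik3r5, a regulatory subunit of the PI3K of immune cells, rose from 59.6 ± 1.67 to 172 ± 1.67 FPKM (log2 fold change 1.75, adjusted p = 8.09e-08). Sos1, an activator of RAS, rose from 4.5 ± 0.465 to 12.8 ± 2.55 FPKM (1.72). The docking protein genes Gab1 and Irs2, the latter acting downstream of the IGF1 and insulin receptors, fell by 1.38 and 1.25 on the log2 scale (adjusted p of 1.13e-06 and 0.000382).

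Growth hormone induces Igf1 in liver through JAK2 and STAT5. Of 6 genes of this axis, 2 (Jak2 and Stat5a) rose and 0 fell by the adjusted p, while 4 did not pass, against 32.5% and 31.5% of all tested genes that rose and fell. With scaling by library size only 1 rose and 2 fell, under the same shift of all genes. Stat5a and Ghr were named after their values were seen. Jak2 rose from 9.51, 9.12 and 9.99 FPKM in control to 25.32, 17.1 and 20.98 FPKM in TgAPPsweOCN libraries, a log2 fold change of 1.42 (adjusted p = 2.73e-05). The growth hormone receptor gene Ghr had a log2 fold change of -0.29 and an adjusted p of 0.096.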
